A study of Mus musculus with 24 samples.

Results

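Gene expression in the distal end of the control mandible was compared with that in the distal end of the control maxilla in mouse embryos at embryonic day 13.5. The comparison was defined by the sample titles alone and rests on 6 of the 24 arrays of the study, 3 of each jaw. Control embryos were littermates of mutants in which Wnt1-Cre, a transgene active in the neural crest, deletes floxed Tgfbr2 (the type II TGF-beta receptor). The litters came from matings of Wnt1cre;Tgfbr2fl/+ with Tgfbr2fl/fl mice, labelled strain C57B6. Every embryo of such a mating inherits at least 1 floxed allele, and whether a control carried the Cre transgene is not given. Mutants were sorted from controls by their cleft palate and skull vault defect, and every jaw was cut in a distal and a proximal portion. The proximal ends of control jaws (6 arrays) and the distal ends of mutant jaws (6 arrays) are set beside the distal control difference below. Their values do not enter that difference. All 24 arrays share an estimate of the spread of each gene, so the other arrays do bear on its SE and adjusted p. Whether the 3 arrays of a group are separate embryos, litters or pools is not stated, so the p-values speak only for the scatter among these arrays, part of which may be technical.

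Both jaws form from the first pharyngeal arch. Neural crest cells that fill the arch build its bone, cartilage, tendon and connective tissue, while the muscle comes from head mesoderm. In the lower part of the arch endothelin-1 acts through its receptor on crest cells, switches on Dlx5 and Dlx6 and, below them, Hand2, and so gives the mesenchyme its mandibular character. The upper part, which escapes that signal, forms the maxilla and the palatal shelves. At this stage tooth buds are growing into the mesenchyme, Meckel's cartilage runs through the mandible, and the palatal shelves lie beside the tongue.

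Values are RMA expression levels on a log2 scale, 1 probe set per gene. A difference is mandible minus maxilla, so a positive value means more signal in the mandible, and 1 unit is a 2-fold change. The 3 values given for a group are those of replicates 1, 2 and 3. A gene was called where its limma p, adjusted by Benjamini-Hochberg, fell under 0.05 in a model fitted to all 24 arrays and 13850 genes. Within each distal group, pairs of arrays correlated at 0.991 to 0.995 (Pearson, across genes, which are not independent replicates). The Gapdh signal at the 3′ end exceeded that at the 5′ end by 0.0248 to 0.158 on the 6 distal control arrays. The 4 tested sex-linked genes had an array mean of 9.12, 6.24 and 6.28 for the mandible and 9.10, 6.36 and 6.34 for the maxilla, high in replicate 1 of both jaws, and 0 of the 4 were called (limma, 0 at an unadjusted p under 0.05). Precision is limited by the number of arrays.

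The jaws differed widely at their distal ends, with muscle genes, Barx1, Nr2f1 and Crh higher in the maxilla and Hand2 and cartilage genes higher in the mandible. Of 13850 genes, 1275 were called (9.21%), 486 higher in the mandible (3.51%) and 789 higher in the maxilla (5.7%). At least 2-fold differences were found for 134 of the genes higher in the mandible and 279 of those higher in the maxilla, and at least 8-fold differences for 9 and 34. The 3 arrays of one jaw lay wholly above the 3 of the other for 1263 of the called genes, and for 4891 of all tested genes (35.3%). The labels do not pair the arrays by replicate number, and the values bear such a pairing out only weakly for replicate 2. With the replicate number as a block, 1966 genes were called (14.2% of those tested), 745 higher in the mandible (5.38%) and 1221 in the maxilla (8.82%). Among them were 1269 of the 1275. The count rested partly on single arrays: it was 781 without mandible replicate 2 and 773 without maxilla replicate 3.

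**Figure D1:**
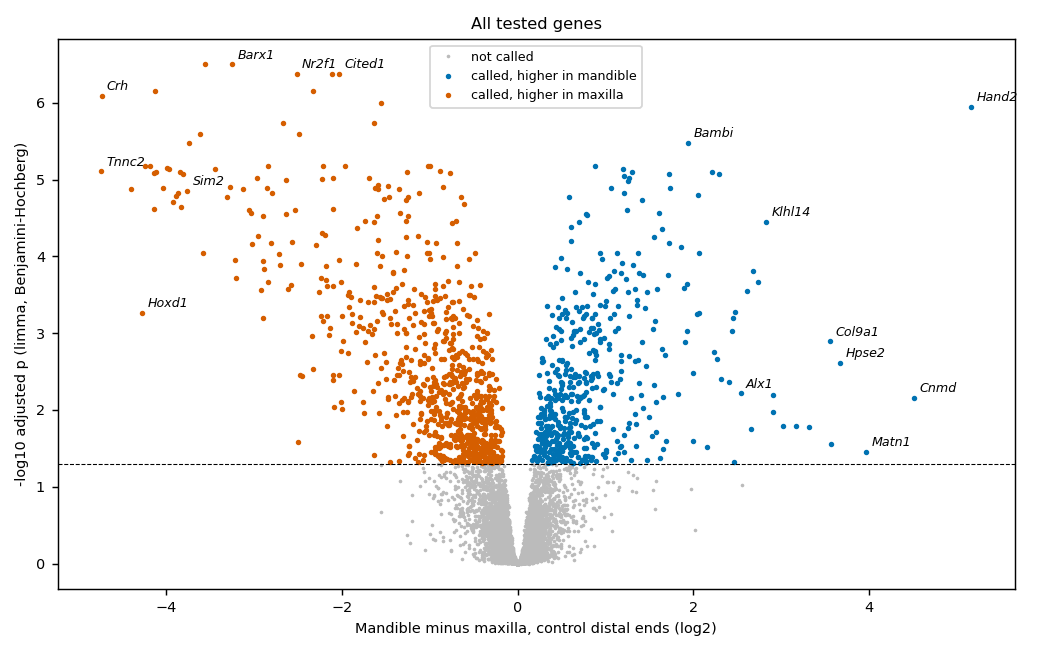
Each point is 1 of 13850 tested genes, with the log2 difference between the control distal mandible and the control distal maxilla on the horizontal axis and the limma adjusted p, as -log10, on the vertical axis. Blue points are the 486 called genes higher in the mandible, orange points the 789 higher in the maxilla, grey points were not called, and the dashed line marks an adjusted p of 0.05.

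Hand2, the bHLH transcription factor of mandibular crest, had the largest difference toward the mandible. It read 13.28, 13.45 and 13.17 on the mandible arrays and 7.91, 8.74 and 7.75 on the maxilla arrays. The lowest mandible array lay far above the highest maxilla array. The difference was 5.16 (SE 0.45, adjusted p = 1.13e-06), or 35.8-fold. The next 11 genes on that side were mostly cartilage genes: Cnmd (chondromodulin, 4.52, adjusted p = 0.00694), Matn1 (matrilin-1, 3.97, adjusted p = 0.0352), Col9a1 (3.55, adjusted p = 0.00127), Acan (aggrecan, 3.32, adjusted p = 0.0169), Hapln1 (the link protein that ties aggrecan to hyaluronan, 3.17, adjusted p = 0.016), Col2a1 (3.02, adjusted p = 0.0163) and Col9a3 (2.91, adjusted p = 0.0107). Cytl1, which encodes a secreted protein made by cartilage, differed by 3.57 (adjusted p = 0.0274). The other 3 were Hpse2, a relative of heparanase (3.68, adjusted p = 0.00243), Scin, an actin-severing protein (2.91, adjusted p = 0.006475), and Klhl14, a kelch protein (2.83, adjusted p = 3.53e-05). Klhl14 read 8.08, 8.45 and 8.22 on the mandible arrays and 5.69, 5.20 and 5.37 on the maxilla arrays. Hpse2 and Klhl14 lay below the 40th percentile of the array on all 3 maxilla arrays, where the signal is dim, as did Matn1 and Acan on 2 of them and Cnmd and Scin on 1.

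Of the 12 largest differences toward the maxilla, 10 were genes of the muscle contractile apparatus or its assembly: Tnnc2 (-4.74, adjusted p = 7.84e-06), Tnnt2 (-4.41, adjusted p = 1.32e-05), Myl1 (-4.24, adjusted p = 6.67e-06), Mylpf (-4.18, adjusted p = 6.67e-06), Mybph (-4.15, adjusted p = 8.19e-06), Myh3 (-4.14, adjusted p = 2.42e-05), Tnnc1 (-4.13, adjusted p = 7.14e-07), Myh8 (-4.11, adjusted p = 8e-06), Myl4 (-4.04, adjusted p = 1.295e-05) and Klhl41 (-3.99, adjusted p = 7.09e-06). In bulk tissue, fewer cells of a type and less RNA per cell cannot be told apart. The other 2 were Crh, the corticotropin-releasing hormone, and Hoxd1, a homeobox gene. Crh read 4.08, 3.72 and 3.82 on the mandible arrays and 7.69, 8.60 and 9.55 on the maxilla arrays, a difference of -4.74 (SE 0.40, adjusted p = 8.06e-07). All 3 mandible arrays were below the 40th percentile for Crh, and for Myh8 and Klhl41. Of the mandible arrays, 2 were below it for Tnnc2 and Mybph and 1 for Tnnt2 and Hoxd1. Hoxd1 read 7.94, 5.03 and 8.03 on the mandible arrays and 11.21, 11.15 and 11.48 on the maxilla arrays, a difference of -4.28 (SE 0.72, adjusted p = 0.000541). Its mandible replicate 2 lay well below the other mandible arrays, and all 3 lay below the maxilla arrays. Cnmd and Col9a3 were no longer called without mandible replicate 2 (adjusted p from 0.05285 to 0.08525). Matn1, Acan, Hapln1 and Col2a1 were no longer called without mandible replicate 2 or 3 or maxilla replicate 2 or 3 (adjusted p from 0.0522 to 0.205). Cytl1 was no longer called without mandible replicate 2 or 3 or maxilla replicate 1, 2 or 3 (adjusted p from 0.0653 to 0.171). Cnmd and Matn1 did not pass the test with only the 6 control distal arrays and the replicate block in the fit (adjusted p from 0.0508 to 0.0853).

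**Figure D2:**
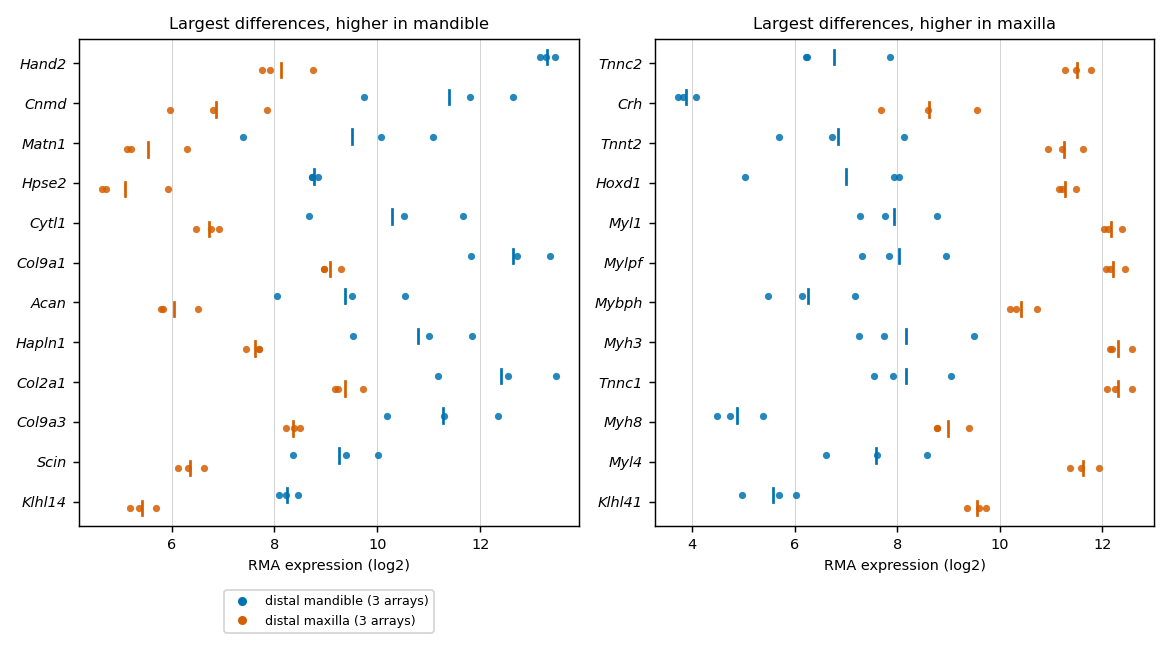
RMA expression (log2, horizontal axis) of the 12 called genes with the largest difference toward each jaw, on the 3 control distal mandible arrays (blue) and the 3 control distal maxilla arrays (orange). Points are arrays and bars are group means. The arrays of the jaws do not overlap for any gene shown, and the cartilage genes spread more across the mandible arrays than across the maxilla arrays.

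The labels of the tissue were checked against genes of mandibular identity. Of 18 listed genes 15 were tested, and 5 were higher in the mandible, 2 higher in the maxilla and 8 were not called (median 0.30, against -0.0043 over all tested genes). Upstream in the pathway, the ligand Edn1 differed by 0.26 (adjusted p = 0.498), its processing enzyme Ece1 by 0.19 (adjusted p = 0.372) and the effector Mef2c by 0.30 (adjusted p = 0.3285). Dlx5 and Dlx6, the central regulators of lower jaw fate, were not called. Dlx5 read 10.53, 10.73 and 10.66 on the mandible arrays and 10.80, 10.75 and 10.99 on the maxilla arrays, with the maxilla arrays slightly above the mandible arrays (-0.21, adjusted p = 0.71). Dlx6 read 9.17, 9.47 and 9.41 on the mandible arrays and 9.35, 9.25 and 9.67 on the maxilla arrays, with overlapping arrays (-0.076, adjusted p = 0.9645). Dlx6os1, the antisense transcript of the Dlx5 and Dlx6 locus, differed by -0.91 (adjusted p = 0.1035), and Dlx4 by 0.37 (adjusted p = 0.694).

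Several genes further down were higher in the mandible. Gsc, a homeobox gene needed for mandibular processes, read 9.21, 9.47 and 9.47 on the mandible arrays and 8.04, 7.87 and 7.51 on the maxilla arrays (1.58, SE 0.36, adjusted p = 0.00777). Pitx1, a homeobox gene of the mandible and hindlimb, read 11.65, 11.31 and 11.23 on the mandible arrays and 10.33, 10.21 and 9.17 on the maxilla arrays (1.49, SE 0.37, adjusted p = 0.0124). Both were separated between the jaws on every array. Dlx3 was higher by 0.84 (adjusted p = 0.0272) and Hand1, the relative of Hand2, by 0.46 (adjusted p = 0.0158). The nuclear receptor gene Nr5a2 differed by 1.03 (adjusted p = 0.0861) without passing the threshold. Toward the maxilla were Cited1, a transcriptional coregulator (-2.04, adjusted p = 4.2e-07), and Rgs5, a regulator of G-protein signals that also marks pericytes (-1.48, adjusted p = 0.00678). Cited1 read 7.39, 7.32 and 7.73 on the mandible arrays and 9.22, 9.60 and 9.74 on the maxilla arrays, so that the maxilla arrays stood clear of the mandible arrays. Dlx3 was no longer called without mandible replicate 1, 2 or 3 or maxilla replicate 2 or 3 (adjusted p from 0.0543 to 0.155). Hand1 was no longer called without mandible replicate 2 or maxilla replicate 2 (adjusted p from 0.066 to 0.122). Gsc was no longer called without maxilla replicate 3 (adjusted p = 0.05004). Pitx1 was no longer called without mandible replicate 1 or maxilla replicate 3 (adjusted p from 0.0573 to 0.101). Rgs5 was no longer called without maxilla replicate 2 (adjusted p = 0.0521). Dlx3 did not pass the test with the mean of all probe sets of a gene (adjusted p = 0.0889). Hand1 did not pass the test with only the 6 control distal arrays and the replicate block in the fit (adjusted p = 0.0702). Rgs5 did not pass the test with the mean of all probe sets of a gene or with only the 6 control distal arrays in the fit, with or without the replicate block (adjusted p from 0.0813 to 0.133).

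Among genes of maxillary identity, 5 of 11 tested were higher in the maxilla and 1 in the mandible (median -0.29). The largest difference was that of Nr2f1, an orphan nuclear receptor of the upper arch, which read 10.07, 8.89 and 9.72 on the mandible arrays and 11.97, 12.11 and 12.14 on the maxilla arrays. The jaws were well separated (-2.52, SE 0.20, adjusted p = 4.2e-07), and the mandible arrays were the more scattered. Its relative Nr2f2 was higher in the maxilla too (-1.27, adjusted p = 5.6e-05). Dlx1, a Dlx gene expressed in upper and lower arch alike, read 9.38, 8.84 and 9.03 on the mandible arrays and 10.62, 10.97 and 10.28 on the maxilla arrays and also separated the jaws (-1.54, SE 0.25, adjusted p = 0.0003485). Dlx2, its neighbour on the chromosome, differed by -0.18 (adjusted p = 0.827) with overlapping arrays. Six2, a homeobox gene of craniofacial mesenchyme, differed by -1.35 (adjusted p = 0.0456) and Pou3f3, a POU-domain factor of the upper arch, by -0.56 (adjusted p = 0.0104). Jag1, the Notch ligand that patterns dorsal arch in zebrafish, was higher in the mandible (0.36, adjusted p = 0.0461). Six4 (0.027, adjusted p = 0.991), Eya1 (-0.21, adjusted p = 0.887), Meis1 (0.30, adjusted p = 0.82) and Meis2 (-0.29, adjusted p = 0.493) were not called. Other probe sets of Eya1 and Meis2 moved the opposite way by 0.13 and 0.19. Pou3f3 was no longer called without mandible replicate 2 (adjusted p = 0.0858). Six2 was no longer called without any 1 of the 6 arrays (adjusted p from 0.0784 to 0.145). Jag1 was no longer called without mandible replicate 1, 2 or 3 or maxilla replicate 2 or 3 (adjusted p from 0.0806 to 0.318). Pou3f3 did not pass the test with the mean of all probe sets of a gene (adjusted p = 0.12). Six2 did not pass the test after another quantile normalization or with no filter on dim probe sets (adjusted p from 0.0507 to 0.0538). It kept the call with only control arrays in the fit and with the fixed replicate block (limma, adjusted p = 0.000489). The SD of Six2 was 0.75 and 0.97 in the mutant distal mandible and maxilla, which share in the estimate of the spread. In the control distal mandible and maxilla it was 0.089 and 0.24. Jag1 did not pass the test with no filter on dim probe sets, with the mean of all probe sets of a gene or with only the 6 control distal arrays in the fit, with or without the replicate block (adjusted p from 0.0581 to 0.339).

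Genes known from the frontonasal region above the mouth did not lie on the side of the maxilla as a group: 4 of 10 tested were higher in the mandible and 1 in the maxilla (median 0.38). Alx1, a homeobox gene of midfacial mesenchyme, read 11.95, 12.25 and 11.84 on the mandible arrays and 9.29, 8.99 and 10.13 on the maxilla arrays. Every mandible array was above every maxilla array (2.54, SE 0.57, adjusted p = 0.00606, or 5.81-fold). Pax3, a paired-box gene of crest and muscle precursors, read 11.68, 12.001 and 11.52 on the mandible arrays and 10.31, 9.50 and 8.56 on the maxilla arrays (2.28, SE 0.45, adjusted p = 0.0022). Msx2, a homeobox gene that responds to BMP, read 9.64, 9.96 and 9.81 on the mandible arrays and 7.90, 8.17 and 7.21 on the maxilla arrays (2.04, SE 0.34, adjusted p = 0.000563). These 3 genes shared the pattern of close mandible arrays and more scattered maxilla arrays. Alx4 was higher in the mandible by 0.67 (adjusted p = 0.0133), and Msx1 differed by 1.01 (adjusted p = 0.0545), just short of the threshold. Pax7, which marks both frontonasal crest and muscle precursors and also stands in the muscle list, lay toward the maxilla (-2.89, adjusted p = 0.000148). The values of Aldh1a3 (-0.88, adjusted p = 0.05215), Rarb (-0.56, adjusted p = 0.12), Tfap2b (0.10, adjusted p = 0.959) and Crabp1 (-0.13, adjusted p = 0.784) did not pass the test. With the fixed replicate block Msx1 (limma, adjusted p = 0.0365) and Aldh1a3 (adjusted p = 0.0286) did pass it. Alx4 was no longer called without mandible replicate 2 or maxilla replicate 2 (adjusted p from 0.0803 to 0.0928). Alx4 did not pass the test with only the 6 control distal arrays and the replicate block in the fit (adjusted p = 0.0661).

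**Figure D3:**
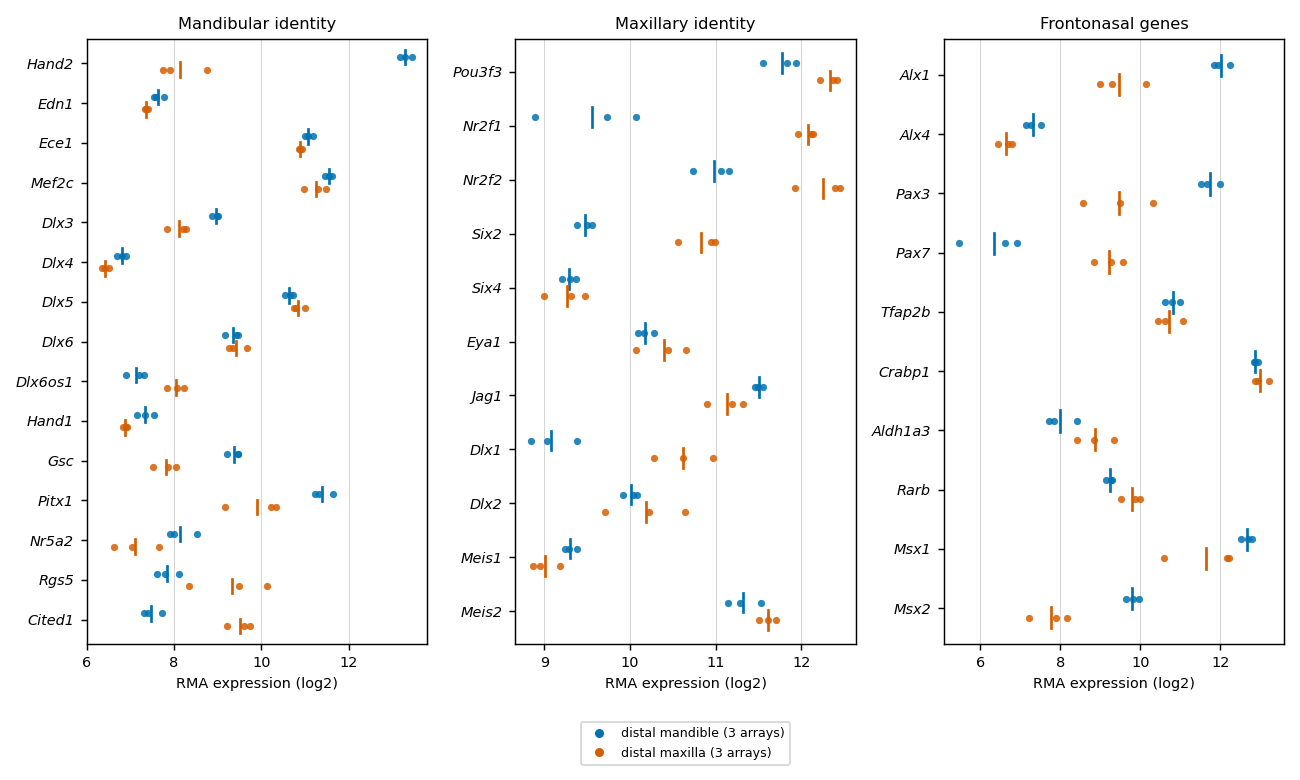
RMA expression (log2, horizontal axis) of every tested gene of the mandibular identity, maxillary identity and frontonasal lists on the 3 control distal mandible arrays (blue) and the 3 control distal maxilla arrays (orange). Points are arrays and bars are group means. Hand2 has the widest gap, Dlx5 and Dlx6 nearly coincide between the jaws, and Alx1, Pax3 and Msx2 are higher in the mandible.

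The counts of every list stand beside 9.21% called over all tested genes, 3.51% higher in the mandible and 5.7% higher in the maxilla. Among the 36 gene lists, skeletal muscle had the largest count on 1 side. Of 29 tested muscle genes 26 were higher in the maxilla, 0 in the mandible, and the median difference was -2.62. The count was 26 in each fit that left out 1 of the 6 distal control arrays. The 3 that were not called, named after their values were seen, were Tcf21 (a regulator of head muscle precursors, -0.48), Chrnd (an acetylcholine receptor subunit, -0.15) and Ckm (muscle creatine kinase, -0.021). The mean level of the 29 genes was 7.40, 7.02 and 8.05 on the mandible arrays and 9.99, 10.16 and 10.47 on the maxilla arrays, with a wide gap between the jaws. Over the proximal ends the list lay between 9.95 and 10.76 on the 6 control arrays, so the distal mandible was the lowest of the 4 control regions. The regulators that commit and differentiate muscle cells, also singled out after their values were seen, lay on the same side as the contractile genes: Myf5 (-1.84), Myod1 (-2.19) and Myog (-2.97).

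The promoters of the 3 muscle-list genes with the largest differences are shown because these genes moved together, and because muscle regulators of the MyoD family bind E-boxes. The E-box CAGCTG was searched in RefSeq windows of 300 bases, from 250 before to 50 after the annotated start. It reads the same on both strands. The sequences are of build GRCm38.p6, printed on the strand of the gene, with CAGCTG in capitals. They belong to Tnnc2 (chr2:164779685-164779984, minus strand), Myl1 (chr1:66945007-66945306, minus strand) and Mylpf (chr7:127211358-127211657, plus strand).
Tnnc2: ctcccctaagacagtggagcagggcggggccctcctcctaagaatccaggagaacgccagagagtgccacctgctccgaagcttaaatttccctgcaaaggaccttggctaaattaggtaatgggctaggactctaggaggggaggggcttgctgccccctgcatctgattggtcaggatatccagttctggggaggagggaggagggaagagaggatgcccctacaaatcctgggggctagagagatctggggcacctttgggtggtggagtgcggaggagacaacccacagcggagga
Myl1: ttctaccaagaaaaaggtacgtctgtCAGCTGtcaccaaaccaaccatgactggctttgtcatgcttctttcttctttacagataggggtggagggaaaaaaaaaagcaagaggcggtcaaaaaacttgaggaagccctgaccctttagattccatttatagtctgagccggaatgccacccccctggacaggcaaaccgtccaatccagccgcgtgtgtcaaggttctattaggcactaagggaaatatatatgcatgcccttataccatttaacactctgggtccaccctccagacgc
Mylpf: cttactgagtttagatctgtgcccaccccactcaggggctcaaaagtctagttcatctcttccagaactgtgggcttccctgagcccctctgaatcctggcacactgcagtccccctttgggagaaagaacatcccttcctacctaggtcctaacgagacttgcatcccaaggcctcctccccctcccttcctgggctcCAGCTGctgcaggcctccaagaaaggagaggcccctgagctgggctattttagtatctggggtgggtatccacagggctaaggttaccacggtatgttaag
Myl1 and Mylpf held 1 match each, and Tnnc2 held 0. E-boxes of any other sequence were not searched. Of the 22 windows found for 20 of the 26 called muscle genes, 9 held the motif (40.9%), and 16.3% of all 32851 windows held it. A match is a description of the sequence and not of binding, and the absence of a match says only that these letters are not in the window.

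The genes of the 3 promoters showed the muscle pattern on every array. Tnnc2, fast troponin C, read 6.23, 6.21 and 7.86 on the mandible arrays and 11.26, 11.48 and 11.78 on the maxilla arrays (-4.74, SE 0.50, adjusted p = 7.84e-06), and its signal was dim on 2 mandible arrays. Myl1, a myosin light chain, read 7.76, 7.27 and 8.77 on the mandible arrays and 12.03, 12.11 and 12.38 on the maxilla arrays (18.9-fold, SE of the log2 difference 0.44). Mylpf, the regulatory light chain of fast muscle, read 7.84, 7.31 and 8.94 on the mandible arrays and 12.07, 12.14 and 12.43 on the maxilla arrays (18.1-fold, SE 0.43). Mandible replicate 3 was the highest of the mandible arrays for Myl1 and Mylpf, and still lay below each maxilla array.

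Tendon genes were partly on the same side. Of 12 tested, 6 were higher in the maxilla and 0 in the mandible (median -0.55). Scx, the transcription factor of tendon progenitors, read 6.03, 6.03 and 6.94 on the mandible arrays and 7.70, 7.93 and 8.29 on the maxilla arrays, with the jaws separated (-1.64, SE 0.21, adjusted p = 3.54e-05) and 2 of the mandible arrays below the 40th percentile. The matrix genes Kera (-2.14, adjusted p = 0.000854), Thbs4 (-1.93, adjusted p = 0.00184) and Col14a1 (-1.40, adjusted p = 0.00403) were also called. In the list of smooth muscle and pericytes 3 of 10 were higher in the maxilla, beside 5.7% of all tested genes, and 0 in the mandible (median -0.28). They were Des, an intermediate filament that skeletal muscle makes too (-1.81, adjusted p = 0.000814), Acta2, smooth muscle actin, which embryonic skeletal muscle also expresses (-1.59, adjusted p = 6.11e-05), and Rgs5, given above. The mean of the tendon list was 9.89 to 10.24 over the mandible arrays and 10.73 to 10.95 over the maxilla arrays, and the muscle list moved the same way. Its part in the tendon and smooth muscle values was not tested.

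Many cartilage genes were higher in the mandible. Of 19 tested, 11 were called in that direction and 0 in the other, with a median of 2.15. Cnmd read 9.74, 12.63 and 11.80 on the mandible arrays and 7.85, 6.81 and 5.96 on the maxilla arrays, a 22.9-fold difference (SE on the log2 scale 1.03). Col2a1, the main collagen of cartilage, read 11.19, 13.47 and 12.53 on the mandible arrays and 9.73, 9.17 and 9.23 on the maxilla arrays (SE 0.78). Col9a1, a collagen on the surface of type II fibrils, read 11.82, 13.36 and 12.71 on the mandible arrays and 8.96, 8.97 and 9.30 on the maxilla arrays (SE 0.66). Mandible replicate 1 was the lowest and replicate 2 the highest mandible array for these genes. The mean of the list followed, at 8.73, 10.75 and 9.94 on the mandible arrays and 7.78, 7.61 and 7.62 on the maxilla arrays. The proximal ends lay between 9.61 and 10.89, so the distal maxilla had the lowest level of the 4 control regions. The count of called cartilage genes changed with single arrays: it was 13 without mandible replicate 1, 1 without mandible replicate 2, 3 without mandible replicate 3, and 8, 3 and 3 without maxilla replicates 1, 2 and 3. These fits share the spread of the mutant arrays. In the mutant distal maxilla the SD of Cnmd, Col2a1 and Col9a1 was 3.19, 2.36 and 2.19. It was 1.49, 1.15 and 0.77 in the control distal mandible and 0.95, 0.31 and 0.19 in the control distal maxilla. Without replicate 1 of the mutant distal maxilla, which stands apart (values below), the count was 12.

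In the bone list 5 of 12 tested genes were higher in the mandible and 0 in the maxilla (median 0.26). Ibsp, bone sialoprotein, read 12.03, 12.13 and 12.68 on the mandible arrays and 11.06, 8.13 and 10.45 on the maxilla arrays (2.40, SE 0.51, adjusted p = 0.00432). Its jaws did not overlap. Alpl, alkaline phosphatase of mineralising tissue, was higher by 1.27 (adjusted p = 0.00197) and Ifitm5, a membrane protein of osteoblasts, by 1.00 (adjusted p = 0.0416). Dlx3, which also belongs to the mandibular list, was another. Against 5 calls in the list, there were 2 without mandible replicate 2, mandible replicate 3 or maxilla replicate 2 and 3 without maxilla replicate 3. Ifitm5 was no longer called without mandible replicate 2 or 3 or maxilla replicate 2 or 3 (adjusted p from 0.0722 to 0.23). Ibsp did not pass the test with only the 6 control distal arrays in the fit, with or without the replicate block (adjusted p from 0.0837 to 0.0893). Alpl did not pass the test with only the 6 control distal arrays and the replicate block in the fit (adjusted p = 0.0554). Ifitm5 did not pass the test with only the 12 control arrays in the fit or with only the 6 control distal arrays in the fit, with or without the replicate block (adjusted p from 0.0671 to 0.08465).

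**Figure D4:**
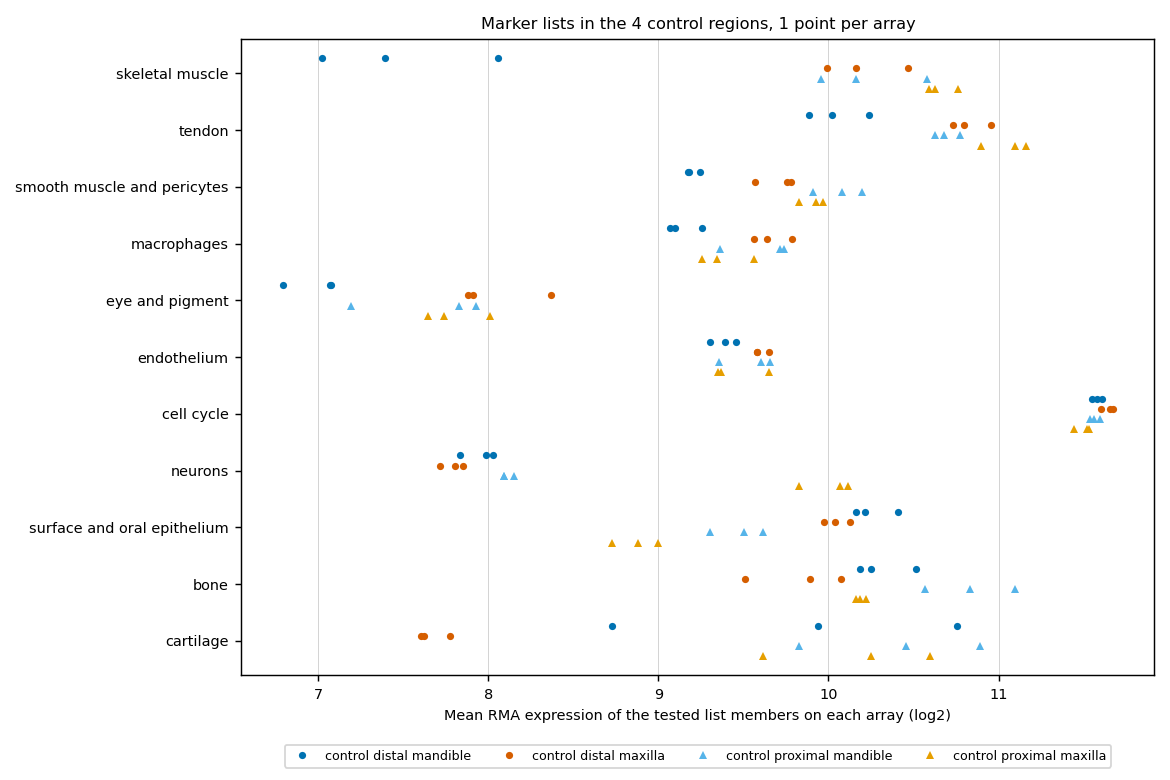
Mean RMA expression (log2, horizontal axis) of the tested members of 11 marker lists, 1 point per array, in the 4 control regions (circles distal, triangles proximal). The distal mandible arrays lie below all other arrays in skeletal muscle, tendon, and smooth muscle and pericytes. They also do so, by small gaps, in eye and pigment and in macrophages. The distal maxilla arrays lie below all others in cartilage and, by a small gap, in bone.

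Teeth form in both jaws, and the tooth list was split: 6 of 19 tested genes were higher in the mandible and 3 in the maxilla (median 0.19). Barx1, a homeobox gene of molar mesenchyme, read 8.58, 8.51 and 8.51 on the mandible arrays and 11.69, 11.77 and 11.90 on the maxilla arrays. The maxilla arrays lay far above the mandible arrays (-3.25, SE 0.24, adjusted p = 3.17e-07, 9.535-fold). Signals of the dental epithelium and incisor field lay the other way. Shh, secreted by the dental epithelium, read 10.38, 10.57 and 10.80 on the mandible arrays and 9.01, 8.33 and 8.22 on the maxilla arrays (2.06, SE 0.28, adjusted p = 9.05e-05). Bmp4, a ligand that specifies incisor mesenchyme, read 11.996, 12.11 and 11.93 on the mandible arrays and 10.55, 10.55 and 10.12 on the maxilla arrays (1.60, SE 0.20, adjusted p = 2.72e-05). Both were separated between the jaws. Fgf3, a ligand made by dental mesenchyme and enamel knot, was higher in the mandible by 1.26 (adjusted p = 9.53e-06), from a dim signal on all 3 maxilla arrays. Against 9 calls in the list, there were 5 without mandible replicate 1.

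The palatal shelves grow from the maxilla. Of their genes 7 of 17 tested were higher in the maxilla and 2 in the mandible, Bmp4 among the latter (median -0.28). Sim2, a bHLH-PAS factor of the palate, read 5.14, 4.97 and 6.21 on the mandible arrays and 8.46, 9.16 and 9.996 on the maxilla arrays (-3.76, SE 0.44, adjusted p = 1.4e-05), with all mandible arrays below the 40th percentile. Meox2, a homeobox gene of the shelves and of muscle, read 8.59, 8.71 and 9.25 on the mandible arrays and 11.34, 11.70 and 12.02 on the maxilla arrays (-2.84, SE 0.29, adjusted p = 6.67e-06). Both separated the jaws fully. Shox2, a homeobox gene of the anterior palate, was higher in the maxilla (-1.06, adjusted p = 0.000518). In the list of forkhead genes, which also holds the transcript Foxl2os, 4 of 12 were higher in the maxilla and 0 in the mandible (median 0.17). The largest value toward the mandible was 1.57, not called. With the fixed replicate block, 1 gene of the list was called higher in the mandible and 4 in the maxilla. Foxl2, known from the eyelid, muscle and ovary, read 8.09, 7.99 and 7.91 on the mandible arrays and 10.51, 10.69 and 11.52 on the maxilla arrays (-2.90, SE 0.36, adjusted p = 2.98e-05). Foxl2os, the transcript opposite to it, differed by -3.88 (adjusted p = 1.66e-05), Foxp2 by -1.79 (adjusted p = 0.0006155) and Foxp1 by -0.48 (adjusted p = 0.0237). Foxp1 was no longer called without mandible replicate 1 or 2 or maxilla replicate 2 or 3 (adjusted p from 0.061 to 0.166). Foxp1 did not pass the test with only the 6 control distal arrays in the fit (adjusted p = 0.0538).

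Transcription factors of crest mesenchyme were higher in the mandible where they were called: 5 of 15, with 0 toward the maxilla (median 0.38). They included Tfap2c (1.04, adjusted p = 0.0016), Snai1 (1.02, adjusted p = 0.00019), Prrx2 (0.61, adjusted p = 0.0076) and Twist1 (0.40, adjusted p = 0.0375). Of 6 tested T-box genes, Tbx1, a gene of arch mesoderm and epithelium (0.69, adjusted p = 0.0406), and Tbx2 (0.53, adjusted p = 0.0171) were higher in the mandible and Tbx15 (-1.37, adjusted p = 0.00281) in the maxilla (median 0.37). Hox genes are silent in the crest of the first arch. Hoxd1, given above, was called toward the maxilla (-4.28, adjusted p = 0.000541) and is not in the list of Hox genes. In that list 1 of 7 tested genes was called, Hoxd3 (median -0.38), beside 9.21% of all tested genes. It read 5.64, 5.05 and 5.96 on the mandible arrays and 7.88, 7.84 and 8.37 on the maxilla arrays, higher in the maxilla (-2.48, SE 0.52, adjusted p = 0.00352), and lay below the 40th percentile on all mandible arrays. Prrx2 was no longer called without mandible replicate 2 (adjusted p = 0.0655). Twist1 was no longer called without mandible replicate 1 or 2 or maxilla replicate 1 or 3 (adjusted p from 0.123 to 0.152). Tbx1 was no longer called without mandible replicate 1, 2 or 3 or maxilla replicate 3 (adjusted p from 0.0844 to 0.292). Tbx2 was no longer called without mandible replicate 1 or 2 or maxilla replicate 3 (adjusted p from 0.062 to 0.128). Prrx2 did not pass the test with only the 6 control distal arrays and the replicate block in the fit (adjusted p = 0.0603). Twist1 did not pass the test with the arrays centred on their medians (adjusted p = 0.0559). Tbx1 did not pass the test with only the 6 control distal arrays in the fit, with or without the replicate block (adjusted p from 0.0788 to 0.118).

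Signalling genes were called in both directions. In the BMP list 6 of 24 were higher in the mandible and 4 in the maxilla (median 0.12). Beside the ligand Bmp4, the pseudoreceptor Bambi, a target and antagonist of BMP signals, read 11.25, 11.44 and 11.23 on the mandible arrays and 9.60, 9.34 and 9.16 on the maxilla arrays (1.94, SE 0.19, adjusted p = 3.34e-06). The mandible arrays were tightly grouped above the maxilla arrays. The type I receptor gene Bmpr1b (-1.27, adjusted p = 3.51e-05) and the secreted modulator Bmper (-1.56, adjusted p = 0.0003485) were higher in the maxilla. In the hedgehog list 3 of 13 were higher in the mandible and 0 in the maxilla (median 0.20). Beside the ligand Shh these were Hhip, a decoy receptor induced by the pathway (0.78, adjusted p = 0.0313), and the transcription factor Gli2 (0.43, adjusted p = 0.000139). Against 10 calls in the BMP list, there were 6 without maxilla replicate 3. Hhip was no longer called without mandible replicate 2 or 3 or maxilla replicate 2 or 3 (adjusted p from 0.0766 to 0.194). Hhip did not pass the test with the mean of all probe sets of a gene or with only the 6 control distal arrays in the fit, with or without the replicate block (adjusted p from 0.0591 to 0.104).

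The FGF list had 5 of 19 genes higher in the mandible and 5 in the maxilla (median 0.10). Its ligands Fgf3 (above) and Fgf7 (-0.95, adjusted p = 0.00472) lay on opposite sides. So did the receptors Fgfr3, which growth plate cartilage also expresses (1.33, adjusted p = 0.0114), and Fgfr4, which muscle precursors express (-2.03, adjusted p = 0.000113). The cartilage and muscle lists moved in these directions too, and their part in the receptor values was not tested. In the WNT list 8 of 35 were higher in the mandible and 3 in the maxilla (median 0.18). The secreted inhibitors were divided: Sfrp4 (1.89, adjusted p = 0.000262) and Wif1 (1.43, adjusted p = 0.000174) were higher in the mandible and Sfrp2 (-1.02, adjusted p = 6.67e-06) in the maxilla. Rspo3, a ligand that amplifies WNT signals, was higher in the mandible (1.09, adjusted p = 0.000284). Against 10 calls in the FGF list, there were 6 without maxilla replicate 3. Against 11 calls in the WNT list, there were 7 without maxilla replicate 3. Fgfr3 was no longer called without mandible replicate 2 or maxilla replicate 3 (adjusted p from 0.0549 to 0.0902). Sfrp4 did not pass the test with only the 6 control distal arrays and the replicate block in the fit (adjusted p = 0.0519).

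In the retinoic acid list 2 of 13 were higher in the mandible and 1 in the maxilla (median 0.0005), beside 3.51% and 5.7% of all tested genes. Aldh1a2, which makes retinoic acid, read 9.05, 9.34 and 8.66 on the mandible arrays and 10.47, 10.59 and 10.68 on the maxilla arrays, clearly higher in the maxilla (-1.56, SE 0.14, adjusted p = 1.02e-06). Cyp26b1, which degrades it (1.42, adjusted p = 0.00132), and Rdh10, which makes its precursor (0.65, adjusted p = 0.000978), were higher in the mandible. In the TGF-beta list 4 of 20 were higher in the mandible and 2 in the maxilla (median 0.045). Of the activin subunits, Inhba was higher in the mandible (0.73, adjusted p = 0.0443) and Inhbb in the maxilla (-1.42, adjusted p = 0.000162). Another probe set of Inhbb, with a mean of 7.05, differed by only -0.13 (SE 0.10). Of genes that TGF-beta induces, Ccn2, which cartilage also expresses, was higher in the mandible (1.27, adjusted p = 0.0148) and Tgfbi in the maxilla (-1.01, adjusted p = 0.000598). Among Eph receptors and ephrins, 2 of 11 were called, beside 9.21% of all tested genes. Both were higher in the mandible: Epha7 (0.62, adjusted p = 0.00147) and Efnb2 (0.45, adjusted p = 0.002955), with a list median of 0.26. Against 6 calls in the TGF-beta list, there were 3 without mandible replicate 2, mandible replicate 3 or maxilla replicate 3. Inhba was no longer called without mandible replicate 1, 2 or 3 or maxilla replicate 1 or 3 (adjusted p from 0.0575 to 0.277). Ccn2 was no longer called without mandible replicate 2 or 3 or maxilla replicate 3 (adjusted p from 0.051 to 0.107). Inhba did not pass the test with no filter on dim probe sets or with the mean of all probe sets of a gene (adjusted p from 0.053 to 0.0538). Efnb2 did not pass the test with the mean of all probe sets of a gene (adjusted p = 0.114).

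Of 21 tested genes of surface and oral epithelium 1 was called, against 9.21% of all tested genes: the basal keratin Krt14 (0.70, adjusted p = 0.00692). Here the list had a median of 0.25. In the list of vibrissa placodes and dermal condensates 5 of 14 were higher in the mandible and 0 in the maxilla (median 0.71). Beside Shh these included Trps1, a GATA-type repressor (1.55, adjusted p = 0.0048), Prdm1, a zinc-finger repressor (1.24, adjusted p = 2.49e-05), and Sox18, which vessels also express (0.86, adjusted p = 0.000313). Of nasal and olfactory genes 1 of 10 was called, Otx1 (1.08, adjusted p = 0.006195, list median -0.011), beside 9.21% of all tested genes. In the salivary gland and tongue list 2 of 7 were higher in the mandible and 0 in the maxilla (median -0.062): Lgr6, a receptor for R-spondins (1.31, adjusted p = 0.00013), and Nkx2-3, a homeobox gene of oral and pharyngeal tissue (1.21, adjusted p = 8.975e-06). Krt14 was no longer called without maxilla replicate 3 (adjusted p = 0.05715).

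Macrophage markers were called toward the maxilla, a count that rested on single arrays. Of 16 tested 10 were higher in the maxilla and 0 in the mandible (median -0.55), including the complement genes C1qb (-0.62, adjusted p = 0.0128) and C1qc (-0.69, adjusted p = 0.0103) and the lysozymes Lyz1 (-0.69, adjusted p = 0.0308) and Lyz2 (-0.61, adjusted p = 0.0477). Lyz1 and Lyz2 are near-identical copies whose probes may share signal. Against 10 calls in the macrophage list, there were 2 without mandible replicate 2, 3 without maxilla replicate 3, 5 without maxilla replicate 2 and 6 without mandible replicate 1. The list mean was 9.07 to 9.26 on the mandible arrays and 9.56 to 9.78 on the maxilla arrays. Of 18 endothelial genes Sox18 was higher in the mandible and Tek, the angiopoietin receptor, in the maxilla (-0.91, adjusted p = 0.005, list median -0.18), again beside 9.21% of all tested genes. For red blood cells 0 of 8 genes were called in limma, with 5 at an unadjusted p under 0.05 (median -0.37), and the largest values were those of Alas2 (-0.69) and Hbb-bh1 (-0.66). Of 7 tested eye and pigment genes 3 were higher in the maxilla and 0 in the mandible (median -0.95): Cryab, a small heat shock protein of lens that muscle also makes (-2.22, adjusted p = 6.67e-06), and the melanocyte genes Dct (-2.01, adjusted p = 0.00778) and Pmel (-1.71, adjusted p = 0.002395). In the brain and pituitary list 3 of 15 genes were tested and Crh was the one called (median -0.051). C1qb, C1qc and Dct were no longer called without mandible replicate 2 or maxilla replicate 3 (adjusted p from 0.0523 to 0.08695). Lyz1 and Lyz2 were no longer called without mandible replicate 1 or 2 or maxilla replicate 2 or 3 (adjusted p from 0.0559 to 0.237). C1qb did not pass the test with the mean of all probe sets of a gene (adjusted p = 0.0987). Lyz2 did not pass the test after another quantile normalization, with no filter on dim probe sets or with only the 6 control distal arrays in the fit (adjusted p from 0.0576 to 0.0832).

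Nerve genes showed no common direction at the distal ends: 3 of 18 neuronal genes were higher in the mandible and 1 in the maxilla (median -0.14). Ret, the receptor of glial-derived neurotrophic factors, read 8.52, 8.35 and 8.29 on the mandible arrays and 5.79, 6.12 and 5.42 on the maxilla arrays (2.61, SE 0.41, adjusted p = 0.000286), dim on all maxilla arrays. Another probe set of Ret, with a mean of 6.81, differed by only 0.25 (SE 0.13), so the size rests on the probe set used. Snap25, a protein of synaptic vesicle fusion (1.47, adjusted p = 0.0442), and Isl1, a LIM homeobox factor of cranial sensory and motor neurons and of oral epithelium (1.11, adjusted p = 0.0441), were higher in the mandible, and the neurofilament gene Nefl in the maxilla (-1.48, adjusted p = 0.0164). Of 10 Schwann cell genes 1 was higher in the mandible, Egr2 (0.97, adjusted p = 0.0374), and 2 in the maxilla, Pou3f1 (-1.63, adjusted p = 0.00193) and Erbb3 (-0.51, adjusted p = 0.0352), with a median of -0.19. For the cell cycle 0 of 24 genes were called in limma, with 1 at an unadjusted p under 0.05 (median -0.06), with values such as -0.16 for Birc5 and -0.14 for Ccna2. Of 19 hypoxia and glycolysis genes 1 was called, the angiogenic ligand Vegfa (0.37, adjusted p = 0.0117, list median 0.053), while 9.21% of all tested genes were called. Of 17 immediate early genes 3 were higher in the mandible and 1 in the maxilla (median 0.035): Egr3 (2.32, adjusted p = 0.00399), Egr2, Ier3 (0.39, adjusted p = 0.0477) and, toward the maxilla, Klf6 (-0.47, adjusted p = 0.0477). Another probe set of Egr3 moved the opposite way by -0.04. Nefl and Vegfa were no longer called without mandible replicate 2 or maxilla replicate 3 (adjusted p from 0.07905 to 0.104). Snap25 was no longer called without mandible replicate 1, 2 or 3 or maxilla replicate 1 or 3 (adjusted p from 0.0504 to 0.298). Isl1 was no longer called without any 1 of the 6 arrays (adjusted p from 0.0577 to 0.2285). Egr2 was no longer called without mandible replicate 1 or 3 or maxilla replicate 1, 2 or 3 (adjusted p from 0.0586 to 0.206). Erbb3 was no longer called without mandible replicate 1 or 2 or maxilla replicate 1, 2 or 3 (adjusted p from 0.06 to 0.149). Klf6 was no longer called without mandible replicate 1, 2 or 3 or maxilla replicate 2 or 3 (adjusted p from 0.0691 to 0.255). Ier3 was no longer called without mandible replicate 2 or 3 or maxilla replicate 1 or 3 (adjusted p from 0.0517 to 0.337). Snap25 did not pass the test with no filter on dim probe sets, with the mean of all probe sets of a gene or with only the 6 control distal arrays in the fit, with or without the replicate block (adjusted p from 0.052 to 0.132). Isl1 did not pass the test with no filter on dim probe sets or with the mean of all probe sets of a gene (adjusted p from 0.052 to 0.0911). Egr2 did not pass the test with only the 6 control distal arrays in the fit, with or without the replicate block (adjusted p from 0.0511 to 0.0757). Erbb3 did not pass the test with the mean of all probe sets of a gene (adjusted p = 0.203). Klf6 did not pass the test after another quantile normalization, with no filter on dim probe sets or with the mean of all probe sets of a gene (adjusted p from 0.0539 to 0.317). Ier3 did not pass the test with the arrays centred on their medians, with no filter on dim probe sets, with only the 12 control arrays in the fit, with only the 6 control distal arrays in the fit or with trended and robust variances (adjusted p from 0.0514 to 0.141).

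To ask whether these jaw differences changed along the jaw, the difference of the control distal ends was set against that of the control proximal ends, which shares no array with it. The proximal ends had 362 called genes (2.61%), 134 higher in the mandible (0.968%) and 228 in the maxilla (1.65%), and 114 genes were called at both ends, which is 8.9% of the distal and 31.5% of the proximal calls. Of the 114, 106 had the same sign. Both comparisons take the spread of a gene from the same fit, so the calls at the ends are not independent. The test of the difference between the ends called 378 genes (2.73%), 157 with a more positive (1.13%) and 221 with a more negative distal value (1.6%). It called 769 with the replicate number as a block. The count depended on which array was left out. It was 215, 154, 204 and 180 without distal mandible replicates 1 and 2 and distal maxilla replicates 2 and 3. It was 153, 167, 172 and 177 without proximal mandible replicates 1 and 3 and proximal maxilla replicates 1 and 3. It moved less without distal mandible replicate 3 (333), distal maxilla replicate 1 (326), proximal mandible replicate 2 (460) or proximal maxilla replicate 2 (312). Without mutant distal maxilla replicate 1, an array that enters only through the shared estimate of the spread and stands apart from its group (values below), it was 533.

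Muscle genes differed between jaws at the distal ends and much less at the proximal ends. Tnnc2 differed by -0.49 and Myl1 by -0.58 proximally, and the proximal median of the muscle list was -0.47, with 0 of 29 genes called in limma and 1 at an unadjusted p under 0.05. In the test between ends 16 of the 29 muscle genes were called with a more negative distal value. Tnnc1, the slow and cardiac troponin C, was among the 5 genes with the smallest p on that side (-3.66, adjusted p = 0.00119). The other 4 were Barx1 (-3.11, adjusted p = 0.000198), Crym, a thyroid hormone binding protein (-2.89, adjusted p = 0.0009205), Smoc2, a secreted calcium-binding protein (-1.72, adjusted p = 0.00128), and Slitrk1, a membrane protein of neurons (-2.42, adjusted p = 0.00128). Crym read 6.90, 6.99 and 7.10 on the mandible arrays and 10.41, 10.64 and 10.61 on the maxilla arrays at the distal ends, with the maxilla arrays far higher. On the proximal arrays it read 9.52, 9.82 and 9.55 for the mandible and 10.34, 10.57 and 10.004 for the maxilla.

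Some genes with a more positive distal value had opposite signs at the ends. Ret differed by 2.61 distally and -2.60 proximally (5.21, adjusted p = 0.000198). On the proximal arrays it read 5.51, 6.63 and 6.35 for the mandible and 8.72, 8.83 and 8.74 for the maxilla, which was the higher jaw there. The neuronal list as a whole had 11 of 18 genes higher in the proximal maxilla and 0 in the proximal mandible, and 10 had a more positive distal value in the test between ends. The part of nerve tissue in the value of Ret was not tested. Its other probe set, given above, was not compared between the ends. The other 4 with the smallest p were Draxin, an axon guidance protein (1.52, adjusted p = 0.000198), Diras2, a small GTPase (2.55, adjusted p = 0.0009205), Rspo3 (1.65, adjusted p = 0.002005) and Kif5a, a neuronal kinesin (2.51, adjusted p = 0.00207). The frontonasal genes Alx1 (3.95, adjusted p = 0.0109) and Msx2 (3.18, adjusted p = 0.002815) were higher in the distal mandible, while proximally they differed by -1.41 and -1.13. Hand2 differed by 3.52 at the proximal ends, a value that was not called different from the distal one (adjusted p = 0.231). For cartilage the proximal median was 0.14, and Col9a1 was the 1 gene of the list called between ends (3.503, adjusted p = 0.04845). That count rested on mutant distal maxilla replicate 1 too: without it, 8 of 19 cartilage genes were called with a more positive distal value.

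**Figure D5:**
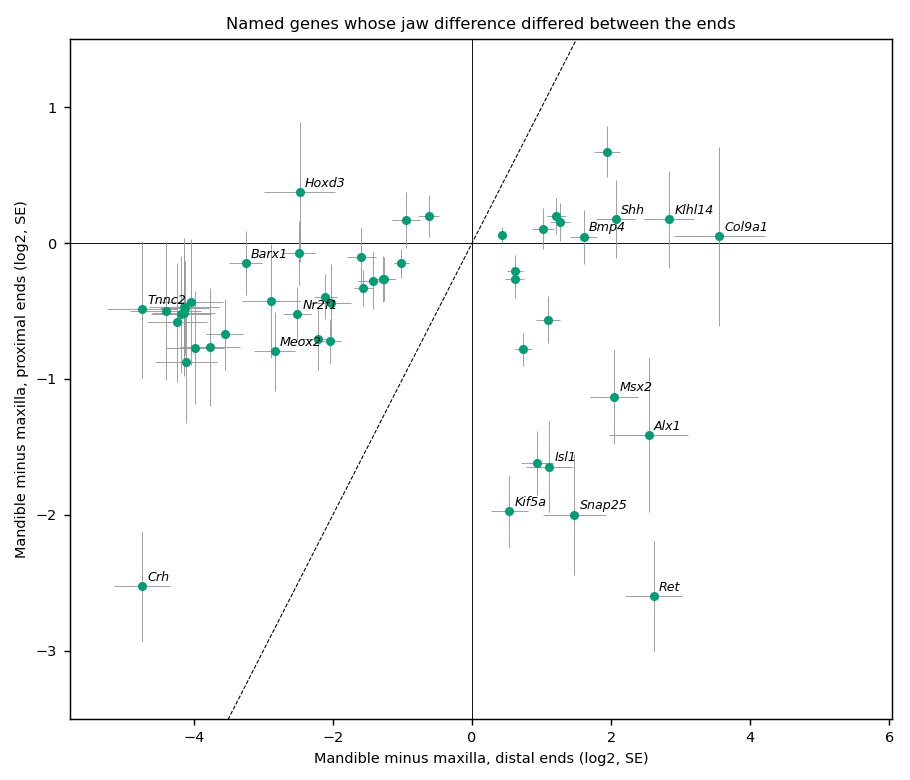
Mandible minus maxilla (log2) at the control distal ends (horizontal axis) and at the control proximal ends (vertical axis) for the 51 named genes whose jaw difference was called different between the ends. Bars are SE and the dashed line marks equal differences. The muscle genes lie at the left, with proximal values between -0.88 and -0.43, and Ret, Alx1, Msx2, Isl1 and Snap25 lie at the lower right, positive distally and negative proximally.

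The distal ends of the Tgfbr2 mutants gave another set of 6 arrays for the same jaw comparison. Replicate 1 of the mutant distal maxilla stood apart. The cartilage list had a mean of 10.62, 7.66 and 7.56 on replicates 1, 2 and 3 of that group, the neuronal list 9.05, 7.92 and 7.87, and the nasal and olfactory list 9.49, 7.85 and 7.70. Replicate 1 was the highest array for these 3 lists, and for skeletal muscle the lowest (8.65, 9.69 and 10.12). On the mutant distal mandible arrays cartilage read 10.06, 9.67 and 9.41. The main counts are given with that array and, as an alternative chosen after seeing the data, without it. With it, the jaw comparison called 681 genes (4.92%), 237 higher in the mandible (1.71%) and 444 in the maxilla (3.21%), of which 539 were also called in controls, 42.3% of the control and 79.1% of the mutant calls, all 539 with the same sign. Of the 1275 control calls 1248 (97.9%) had the same sign in the mutants, against 67.6% of all tested genes. Without the array the mutant jaw comparison called 872 genes (6.3%), of which 641 were called in controls, again all with the same sign. The mutant and control comparisons take the spread of a gene from the same fit, so their shared calls are not independent. With the array, Hand2 differed by 4.64 in the mutants, Barx1 by -2.44, Nr2f1 by -2.38, Crh by -4.03 and Hoxd1 by -4.03. Muscle genes had a mutant median of -1.43 with 15 of 29 called, and cartilage genes 1.21 with 0 of 19 called in limma (8 at an unadjusted p under 0.05). Without it the cartilage median was 2.14 with 11 of 19 called higher in the mandible, and the muscle median -1.82 with 24 of 29 called higher in the maxilla. The limma test of mutant minus control jaw difference called 0 of 13850 genes, with 421 at an unadjusted p under 0.05 (3.04%), and without that array it called 0, with 402 at an unadjusted p under 0.05. With the replicate number as a random block it called 1, Gas2, a cytoskeletal protein (1.08, SE 0.163, adjusted p = 0.0374), named after its value was seen. The Gapdh difference of 3′ over 5′ signal was higher on 4 of the 6 mutant arrays, up to 0.773, than on any distal control array, and its part in the mutant values was not tested.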

How the data were processed

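The deposited values are log2 expression per probe set of an Affymetrix mouse array, which the authors computed by RMA, per the submitters' processing notes. Its version, the set of arrays it was run on and any pooling of embryos are not given in these sources. Per the labels' protocols, 5 µg of RNeasy-purified total RNA went into biotin-labelled cRNA. Of 45101 probe sets, 34958 carry 1 gene symbol, 932 several and 9211 none. Identifiers of 34754 probe sets matched the RefSeq gene table (GRCm38.p6), with 0 symbols changed. Each of 18194 genes took its probe set with the highest mean, and 13850 genes above the 40th percentile of the array on at least 3 arrays were tested.

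The model was fitted with limma 3.58.1 (R 4.3.3) on 24 arrays, with 1 coefficient per group (8 groups of 3, 16 residual degrees of freedom). p-values were adjusted by Benjamini-Hochberg over 13850 genes. SE is the moderated standard error. The script was tested on simulated data. Same-numbered distal control arrays deviated together across genes (correlations 0.377, 0.107 and 0.369 for replicates 1, 2 and 3), weakly so for replicate 2. This was not tested, and the labels say nothing of pairs. The main fit did not pair the arrays, and the replicate number entered only as a block in alternatives. Alternatives covered normalization, filter, probe set, arrays in the fit, replicate block (random block with statmod 1.5.0) each compared control array left out and, chosen after seeing the data, 1 mutant array left out.

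The comparison and the 36 gene lists (571 symbols, 531 found, 484 tested) were chosen with earlier results of these data known. Named genes are the 12 largest non-overlapping called differences each way, all genes of the 3 identity lists, up to 4 called members of each other list (2 with no call where none was called), and the 5 smallest p each way between ends. No set test was run. Some list symbols were not analysed here.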

Additional observations from a re-analysis of the deposited data

Results flagged for a closer look

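The jaw difference of the control distal ends differed from that of the control proximal ends for 378 genes in the limma test of the difference itself, and 51 of them are named genes. The values that follow are that difference of differences, distal minus proximal, on the log2 scale. Muscle genes, and a pair of genes that muscle shares with other tissue (Cryab and Acta2), had negative values, with -4.26 for Tnnc2, -3.91 for Tnnt2, -3.66 for Myl1, -3.66 for Mylpf, -3.63 for Mybph, -3.67 for Myh3, -3.66 for Tnnc1, -3.23 for Myh8, -3.60 for Myl4, -3.22 for Klhl41, -1.51 for Cryab and -1.49 for Acta2. Transcriptional regulators with a negative value had -1.99 for Nr2f1, -1.01 for Nr2f2, -1.32 for Cited1, -2.47 for Pax7, -3.11 for Barx1, -3.001 for Sim2, -2.04 for Meox2 and -2.86 for Hoxd3. The other negative values were -2.21 for Crh, -1.01 for Bmpr1b, -1.59 for Fgfr4, -1.12 for Fgf7, -0.87 for Sfrp2, -1.23 for Aldh1a2, -1.15 for Inhbb, -0.82 for C1qb, -2.89 for Crym, -1.72 for Smoc2 and -2.42 for Slitrk1.

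Genes with a positive value fell into those that were negative at the proximal ends and those that were not. In the first set the value was 3.95 for Alx1, 3.18 for Msx2, 0.87 for Prrx2, 1.65 for Rspo3, 0.83 for Epha7, 5.21 for Ret, 3.47 for Snap25, 2.75 for Isl1, 1.52 for Draxin, 2.55 for Diras2 and 2.51 for Kif5a. In the second set it was 3.503 for Col9a1, 2.66 for Klhl14, 1.89 for Shh, 1.56 for Bmp4, 1.11 for Fgf3, 0.91 for Snai1, 0.37 for Gli2, 1.26 for Bambi and 1.01 for Nkx2-3. Each of these except Kif5a was called higher in the distal mandible. Diras2 was no longer called without mandible replicate 3 or maxilla replicate 3 (adjusted p from 0.0589 to 0.114). Diras2 did not pass the test with only the 6 control distal arrays in the fit, with or without the replicate block (adjusted p from 0.0541 to 0.0951). No group of 3 arrays was tested for outlying arrays.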

How the results depend on the processing

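The count of genes called between the control distal jaws (1275) was 1966 with the fixed replicate block, 2037 with the random replicate block, 2192 in a fit of only the 12 control arrays, and 773 to 1396 with single arrays left out. It stayed within 1.5 times, at 1087 to 1708, under the other 8 alternatives. The count between ends (378) was 769 with the fixed replicate block, 960 with the random replicate block, 1064 with only the 12 control arrays, and 153 to 533 with single arrays left out. The mutant minus control count (0) was 1 with the random replicate block and 0 with the fixed replicate block and with each distal control array or mutant distal maxilla replicate 1 left out (the last chosen after seeing the data). It could not be computed from the 12 control arrays. Of the 121 named genes that were called 0 changed direction under any alternative, and of the 25 not called 6 did under at least 1. Of the 121, 76 kept the call under every alternative and 45 lost it under at least 1, most often without mandible replicate 2 (35 genes) or maxilla replicate 3 (34 genes). Of the 25 not called, 11 were called under at least 1 alternative. The causes were not tested. With 3 arrays a group, and dim signal on 1 side for some genes, small differences may be missed, and the pairing comes from the values.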

Other observations

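The levels of 3 genes that separated the distal jaws are given for all 4 control regions. Hoxd1 read 7.94, 5.03 and 8.03 in the distal mandible, 11.21, 11.15 and 11.48 in the distal maxilla, 10.01, 7.23 and 9.62 in the proximal mandible and 9.65, 10.12 and 9.40 in the proximal maxilla. Hoxd3, its neighbour in the HoxD cluster, read 5.64, 5.05 and 5.96 in the distal mandible, 7.88, 7.84 and 8.37 in the distal maxilla, 7.63, 5.43 and 7.11 in the proximal mandible and 6.27, 6.86 and 5.92 in the proximal maxilla. For both, the distal maxilla arrays were the highest of the 12 control arrays, and replicate 2 was the lowest array of each mandible end. Slitrk1, a membrane protein of neurons, read 6.24, 6.09 and 6.47 in the distal mandible, 8.30, 8.77 and 9.21 in the distal maxilla, 9.05, 8.69 and 9.11 in the proximal mandible and 8.96, 9.10 and 9.004 in the proximal maxilla, lowest in the distal mandible. No test of 1 region against the other 3 was made.

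Sfrp4, a secreted WNT inhibitor, differed between the distal jaws by 1.89 in controls and by 3.28 in mutants, the difference of these being 1.38 (SE 0.41, not called in limma). Y-linked Uty read 9.54, 3.99 and 3.61 on the mandible arrays and 9.50, 3.99 and 4.30 on the maxilla arrays, and Kdm5d read 10.11, 3.49 and 4.16 on the mandible arrays and 10.14, 3.98 and 4.06 on the maxilla arrays. Replicate 1 was high and replicates 2 and 3 were low in both jaws, so the jaws were balanced for these genes.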
